A study of Caenorhabditis elegans with 25 samples.

Results

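The fatty acid desaturase genes fat-1 to fat-7 and the fatty acid elongase genes elo-1, elo-2 and elo-5 of C. elegans were picked by name as members of one enzyme pathway, 10 of the 42532 genes counted. Poly(A) RNA was taken from whole worms as day 1 adults, 500 to 600 of them for each sample, and 5 genotypes had 5 libraries each. The flp-17oe egl-6(lof) strain carried egl-6(n4537)X and the extrachromosomal array ssrEx1193, which holds flp-17 fused to GFP under its own promoter (flp-17p::flp-17::GFP) and a muscle marker (myo-3p:mCherry). The flp-17oe strain carried that array without the egl-6 allele. The egl-6(lof) strain carried egl-6(n4537)X alone, the flp-17(lof) strain carried flp-17(n4894)IV, and N2 was the wild type. FLP-17 is a neuropeptide precursor of the BAG sensory neurons, and EGL-6 is a receptor for its peptides. The mutant and array strains had been crossed 6 times into N2. Array carriers were picked by fluorescence on a large particle sorter 24 hours ahead of the harvest, and strains without an array were only washed and moved to new plates. Effects of flp-17 excess, of the other array contents and of sorting therefore cannot be told apart in any comparison of array with non-array worms.

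Desaturases place double bonds in fatty acyl chains and elongases lengthen these chains, and together the enzymes of this pathway make the monounsaturated, polyunsaturated and branched fatty acids of worm membranes, yolk and fat stores. The pathway is known mainly from the intestine, the fat-storing organ of the worm. The first step is the delta-9 desaturation of saturated acyl chains by FAT-5, FAT-6 and FAT-7, which overlap in function. FAT-2 then makes linoleic acid from oleic acid, FAT-1 turns omega-6 into omega-3 acids, and FAT-3, ELO-1 and FAT-4 act in turn to build the long polyunsaturated acids. ELO-2 lengthens palmitic acid, and ELO-5 acts in the synthesis of branched-chain fatty acids.

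The genes lie on chromosomes IV and V of ce11, by the Ensembl annotation of that assembly, and all 10 are protein-coding. The palmitoyl-CoA desaturase gene fat-5 (WBGene00001397) is at V:17725004-17726818 on the plus strand, and its longest protein has 333 residues. The stearoyl-CoA desaturase genes fat-6 (WBGene00001398, IV:11913692-11915687, minus strand) and fat-7 (WBGene00001399, V:7151353-7153146, minus strand) encode 339 and 338 residues. They are close copies, so the division of reads between them is uncertain. The delta-12 desaturase gene fat-2 (WBGene00001394) is at IV:13323873-13326395 and the omega-3 desaturase gene fat-1 (WBGene00001393) at IV:13315644-13318811, both on the plus strand and 5062 bases apart. The delta-5 desaturase gene fat-4 (WBGene00001396, IV:9799429-9802226) lies 797 bases upstream of the delta-6 desaturase gene fat-3 (WBGene00001395, IV:9803023-9806119), also on the plus strand. The elongase genes elo-1 (WBGene00001239), elo-2 (WBGene00001240) and elo-5 (WBGene00001243) are at IV:9526366-9528336 on the plus strand and at IV:17466062-17467408 and IV:5374616-5377117 on the minus strand. Of the members on chromosome IV, elo-2 is nearest to flp-17, at 0.274 Mb. Exons of fat-5 share 28 of 1104 bases with twk-42 on the other strand, and exons of elo-5 share 162 of 922 bases with F41H10.3 on the other strand. Since the strand setting of the counting is not given in the sources used here, reads of these stretches are of uncertain origin. Across libraries twk-42 had 2.57 to 7.41 CPM and F41H10.3 had 91.2 to 167 CPM (CPM are counts scaled to a common library size, with TMM normalization).

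Total counts ran from 25164923 to 99717657 per library, and each member had 1022 to 40010 counts, so that counting error alone was at most 3.13% of a value. The flp-17 transcript averaged 232 CPM in flp-17oe egl-6(lof) against 4.64 CPM in egl-6(lof) (log2 5.65, SE 0.11), and 188 CPM in flp-17oe against 4.62 CPM in N2 (log2 5.34, SE 0.11). In flp-17(lof) it stood at 0.310 ± 0.0607 CPM (SD, n = 5). The egl-6 transcript was at 2.81 ± 0.496 CPM in egl-6(lof) and 6.03 ± 0.629 CPM in N2. Replicate 1 of every genotype belonged to batch 1 and the other replicates to batch 2. The shallowest library was flp-17(lof) replicate 1, in which ribosomal RNA genes took 9.50% of all counts, where the remaining 24 had 0.276% to 3.12%. Lists of markers of intestine, muscle, neurons and oocytes had no gene at 0 in any library. The labels do not say whether replicates were separate cultures, so p-values measure the spread between these samples, which may be technical.

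In N2 fat-2 was the most abundant of the members, and fat-5 and fat-3 were the least abundant. Levels are compared between genes per length, as RPKM (scaled counts per kilobase of merged exons). In N2, fat-2 averaged 308 ± 11.9 RPKM (SD, n = 5), and its lowest library lay above every library of the next gene. Then came elo-5 at 228 ± 5.69, elo-1 at 225 ± 13.8, fat-6 at 219 ± 20.3 and fat-1 at 195 ± 7.74 RPKM, each overlapping the next in its library values. A gap separated them from fat-4 at 119 ± 5.98, elo-2 at 112 ± 8.69 and fat-7 at 103 ± 10.6 RPKM, which overlapped one another in that order. At the bottom were fat-5 at 51.1 ± 6.73 and fat-3 at 50.2 ± 3.24 RPKM, again overlapping. The order of the means was not the same everywhere. In flp-17oe, fat-6 took second place with 253 ± 29.6 RPKM, but overlapped the next gene, elo-1, at 218 ± 21.1 RPKM. In the same strain fat-5 at 79.8 ± 18.8 RPKM no longer overlapped fat-3 at 38.5 ± 2.72 RPKM. Second place went to fat-6 in flp-17oe egl-6(lof) as well and to elo-1 in egl-6(lof), each again overlapping the next gene.

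Across all 25 libraries the members differed in how steady they were. The most variable were fat-5, with an SD of 0.462 in log2 CPM, and fat-7, with 0.407, against a median SD of 0.177 over genes at a mean log2 CPM of at least 1. For fat-7 the highest library, flp-17oe replicate 5, held 3.63 times the lowest, flp-17oe egl-6(lof) replicate 2. The steadiest was fat-1, with an SD of 0.110, at 212 CPM in its lowest and 317 CPM in its highest library.

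**Figure D1:**
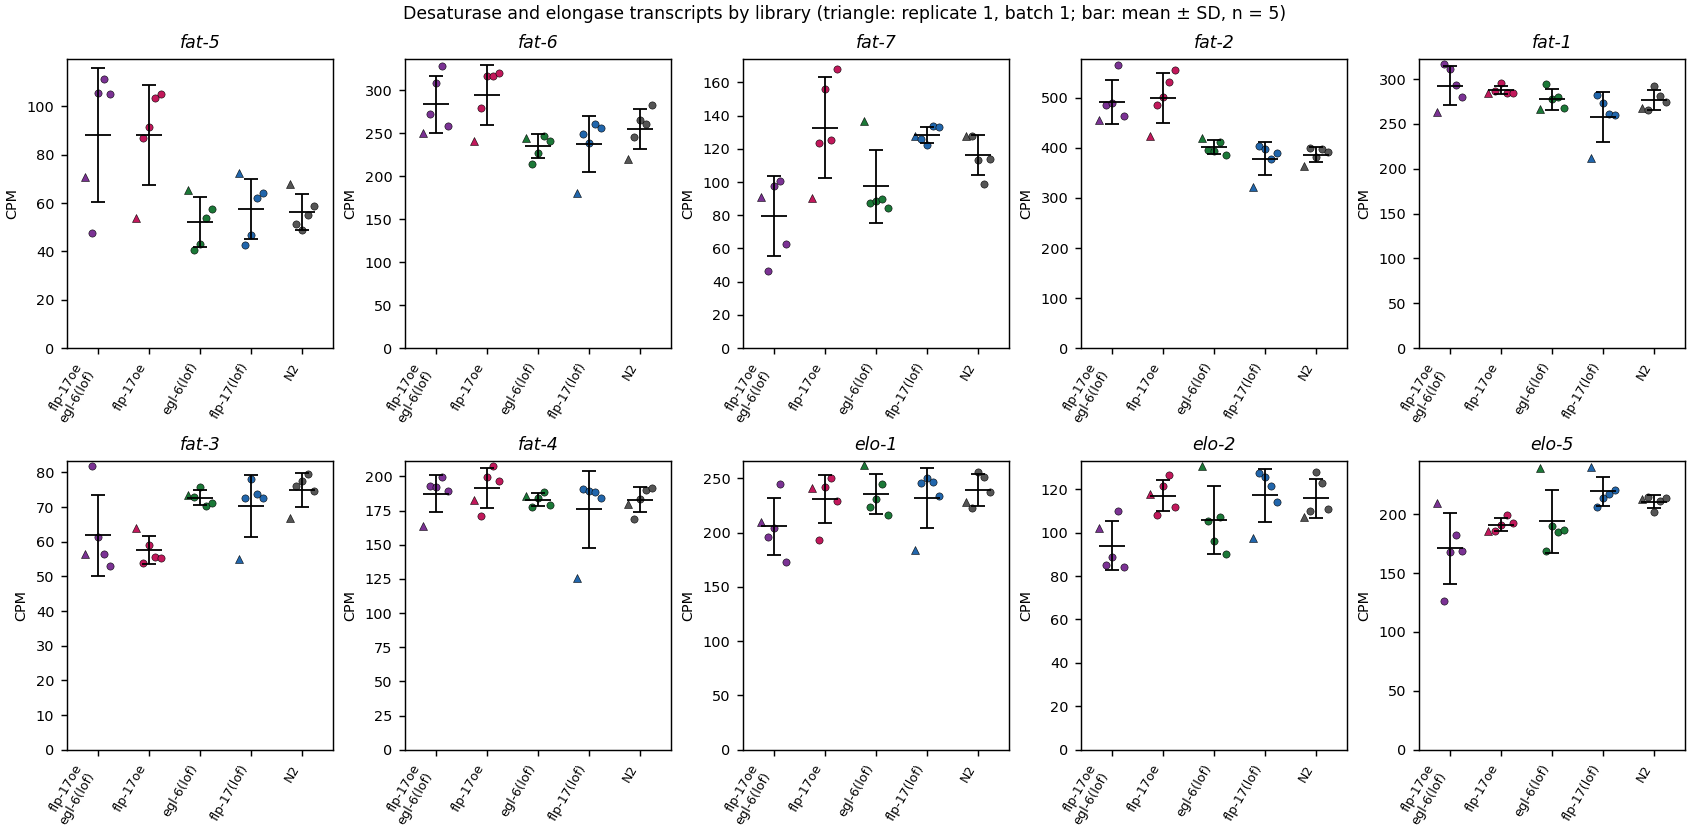
CPM (y axis, from 0) of each of the 10 genes in each library of the 5 genotypes (x axis), with the mean and SD of the 5 replicates as bars and batch 1 libraries as triangles. The fat-2 panel has both array strains above the 3 strains without an array, and the fat-7 panel has its lowest mean, 79.8 CPM, in flp-17oe egl-6(lof).

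A test of any difference between the 5 genotypes (edgeR quasi-likelihood test with a batch term, Benjamini-Hochberg over all genes) passed at an adjusted p under 0.05, here termed called, for 7 of the 10 members, against 21.0% of the 14634 genes tested. They were fat-2 (adjusted p = 1.78e-05), fat-6 (0.00589), fat-5 (0.00979), elo-5 (0.0113), fat-3 (0.0130), fat-7 (0.0147) and elo-2 (0.0496). The other 3 were fat-1 (adjusted p = 0.0834), elo-1 (0.356) and fat-4 (0.666). With a replicate number left out of every genotype the count was 7 (number 1), 5 (number 2), 1 (number 3), 3 (number 4) and 2 (number 5). The calls over all genes moved too, to 3322 of 14542, 2559 of 14607, 1820 of 14689, 1691 of 14644 and 1705 of 14624 in the same order.

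Array worms were compared with N2 to see what flp-17 excess, together with the rest of the array and the sort, changed. The oleate desaturase gene fat-2 was higher in flp-17oe, at 424, 485, 501, 532 and 556 CPM in replicates 1 to 5, against 363, 400.0, 382, 397 and 392 CPM in N2. Every flp-17oe library lay above every N2 library, and the fold of the means was 1.29 (log2 0.37, SE 0.06, edgeR adjusted p = 0.000480). The step that opens the path to arachidonic and eicosapentaenoic acid, the delta-6 desaturase gene fat-3, went the other way. It stood at 63.9, 53.8, 58.9, 55.5 and 55.3 CPM in flp-17oe, against 66.9, 76.01, 77.4, 79.6 and 74.7 CPM in N2. These ranges did not overlap either, and the mean was 0.767 times that of N2 (log2 -0.38, SE 0.09, edgeR adjusted p = 0.0136). Thus 2 of 10 members were called in flp-17oe against N2, 1 higher and 1 lower, where 6.96% of all genes were called, 4.78% higher and 2.18% lower. Without flp-17oe replicate 5 the share of all genes was 4.56%, and 1 member was called. The median log2 change of the 10 was 0.06, against 0.01 over all genes.

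For both calls the difference was smaller in batch 1, which had 1 library for each genotype, and whether the batches differ was not tested. For fat-2 the single batch 1 libraries differed by log2 0.23, and batch 2 alone gave 0.40 (edgeR adjusted p = 0.000133). For fat-3 the batch 1 libraries differed by log2 -0.07, and batch 2 alone gave -0.46 (edgeR adjusted p = 0.00216). The call of fat-2 held with any single library left out. The call of fat-3 was lost without flp-17oe replicate 2, flp-17oe replicate 5 or N2 replicate 4, with an edgeR adjusted p of up to 0.0649. It was also lost without replicate number 3, 4 or 5 of every genotype (edgeR adjusted p of up to 0.173).

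Among the delta-9 desaturases, fat-5 had the largest difference in flp-17oe but a wide spread. Its values were 53.6, 86.8, 91.3, 103.6 and 105 CPM in flp-17oe and 67.8, 51.5, 48.7, 55.3 and 59.0 CPM in N2. The 4 batch 2 libraries of flp-17oe lay above all of N2, while flp-17oe replicate 1 fell inside the N2 range. The fold of the means was 1.56 (log2 0.65, SE 0.21, edgeR adjusted p = 0.0673). In batch 1 the 2 libraries differed by log2 -0.34, and in batch 2 alone the change was 0.85 (edgeR adjusted p = 0.00873). DESeq2 called fat-5, and edgeR called it without flp-17oe replicate 1 or without flp-17oe egl-6(lof) replicate 2. A fit to these genotypes alone called it too (edgeR adjusted p = 0.0419). The edgeR adjusted p over single libraries left out ran from 0.0102 to 0.149.

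The stearoyl-CoA desaturase gene fat-6 averaged 295 ± 34.5 CPM in flp-17oe and 255 ± 23.6 CPM in N2 (SD, n = 5 each; log2 0.20, SE 0.08, edgeR adjusted p = 0.120), with overlapping ranges. It was called on leaving out egl-6(lof) replicate 1 (edgeR adjusted p = 0.0495). Its copy fat-7 averaged 133 ± 30.5 CPM in flp-17oe and 116 ± 11.9 CPM in N2 (log2 0.20, SE 0.18, edgeR adjusted p = 0.520). The branched-chain elongase gene elo-5 was at 186, 186, 191, 199 and 192 CPM in flp-17oe, against 213, 214, 201, 211 and 214 CPM in N2. Its ranges did not overlap, yet the difference was not called (log2 -0.14, SE 0.08, edgeR adjusted p = 0.316). The remaining members, fat-1, fat-4, elo-1 and elo-2, had log2 changes between -0.05 and 0.07.

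Several marker lists moved in the same worms, and their part in the member results was not tested. These lists were chosen with earlier results of these data known, so their counts only describe. Late embryonic cuticle and precuticle genes had 12 of 14 members called higher in flp-17oe against N2, and their summed level ran from 30.5 to 141 CPM in flp-17oe and from 23.9 to 34.1 CPM in N2. Larval molting genes had 7 of 13 called higher, with sums of 99.8 to 132 CPM in flp-17oe, overlapping those of N2, whose lowest was 74.9 and median 93.5 CPM. Body wall muscle markers had 5 of 10 called lower, with sums of 3110 to 3630 CPM in flp-17oe and 3950 to 5020 CPM in N2. Neuron markers had 3 of 10 called higher (sums of 298 to 318 CPM in flp-17oe and 272 to 289 CPM in N2), and oocyte and sperm markers had 0 called. Intestine markers had 2 of 15 called higher, elt-2 and pgp-3, and their sums of 1200 to 1340 CPM in flp-17oe overlapped the 1230 to 1360 CPM of N2. The 6 vitellogenin genes, whose yolk proteins carry lipid out of the intestine, had 2 called lower, vit-1 (log2 -0.40, SE 0.10) and vit-3 (log2 -0.34, SE 0.10), with sums of 70300 to 81200 CPM in flp-17oe and 63300 to 81300 CPM in N2. In bulk RNA of whole worms, a changed share of a tissue or of embryos in the sample and changed RNA per cell cannot be told apart.

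The same array was then compared in worms that lack the receptor, flp-17oe egl-6(lof) against egl-6(lof). Here 3 of 10 members were called, all higher, against 14.4% of all genes called in either direction and 6.02% called higher. The 3 were fat-2, fat-5 and fat-6. The fat-2 transcript had 456, 485, 489, 565 and 463 CPM in flp-17oe egl-6(lof), against 419, 395, 394, 413 and 386 CPM in egl-6(lof), with no overlap (fold of means 1.23, log2 0.29, SE 0.06, edgeR adjusted p = 0.00196). For fat-6 the values were 250.3, 273, 309, 328 and 258 CPM in flp-17oe egl-6(lof) and 245, 214, 227, 247 and 242 CPM in egl-6(lof). These ranges also lay apart, but replicates 1 and 5 of flp-17oe egl-6(lof) were close to the top of egl-6(lof) (fold of means 1.21, log2 0.26, SE 0.08, edgeR adjusted p = 0.0213). For fat-5 the values were 70.9, 47.5, 105, 111 and 105 CPM in flp-17oe egl-6(lof), against 65.5, 40.5, 43.0, 54.02 and 57.7 CPM in egl-6(lof). All flp-17oe egl-6(lof) libraries but replicate 2 were above every egl-6(lof) library, and the fold of the means was 1.69 (log2 0.76, SE 0.21, edgeR adjusted p = 0.0148).

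Differences were again smaller in batch 1, with its 1 library for each genotype, and whether the batches differ was not tested. Between the single batch 1 libraries fat-2, fat-5 and fat-6 differed by log2 0.12, 0.11 and 0.03. Batch 2 alone gave 0.33, 0.92 and 0.33, all called (edgeR adjusted p = 0.000319, 0.00206 and 0.00253). The fat-2 call held in every refit that left out a library or a replicate number. The fat-5 call held with any single library left out, but was lost in a fit to these genotypes alone (edgeR adjusted p = 0.0924) and without replicate number 3, 4 or 5 (up to 0.142). The fat-6 call was lost without egl-6(lof) replicate 2 or 3 or without flp-17oe egl-6(lof) replicate 3 or 4, with an edgeR adjusted p of up to 0.0696. It was also lost with no batch term, in a fit to these genotypes alone and without replicate number 2, 3 or 4 (edgeR adjusted p of up to 0.184).

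The delta-6 desaturase gene fat-3 had 56.5, 81.8, 61.3, 56.5 and 53.0 CPM in flp-17oe egl-6(lof), against 73.3, 72.9, 75.8, 70.2 and 71.1 CPM in egl-6(lof). Of the flp-17oe egl-6(lof) libraries 4 were below all of egl-6(lof), and replicate 2 was above them. With it fat-3 was not called (log2 -0.24, SE 0.09, edgeR adjusted p = 0.0993), and without it fat-3 was called lower (edgeR adjusted p = 0.00319). DESeq2 called fat-3 lower with all libraries. The elongase genes elo-1, elo-2 and elo-5 had log2 changes of -0.20 (SE 0.09), -0.17 (SE 0.09) and -0.18 (SE 0.08), none of them called, and fat-1, fat-4 and fat-7 were not called either.

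In these worms too the marker lists moved, with the same limit on how they were chosen, and their part was not tested. Late embryonic cuticle and precuticle genes had 13 of 14 called higher, with sums of 37.4 to 272 CPM in flp-17oe egl-6(lof) and 31.4 to 47.4 CPM in egl-6(lof). Larval molting genes had 9 of 13 called higher, neuron markers 1 of 10 higher, oocyte markers 1 of 12 higher, body wall muscle markers 6 of 10 lower and sperm markers 9 of 11 tested lower. Vitellogenin genes had 0 of 6 called. Intestine markers had 1 called higher, pgp-1, and 2 lower, act-5 and pept-1, of 15, with sums of 1060 to 1210 CPM in flp-17oe egl-6(lof) and 1210 to 1460 CPM in egl-6(lof).

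The comparison of flp-17oe egl-6(lof) with flp-17oe asks which transcripts of array worms depend on the receptor, and here both groups carried the array and were sorted. The flp-17 transcript was not called between them (232 CPM in flp-17oe egl-6(lof) and 188 CPM in flp-17oe, log2 0.31, SE 0.09, edgeR adjusted p = 0.0914). All 5 flp-17oe egl-6(lof) libraries were still above the flp-17oe mean of flp-17, and the part of this in the member results was not tested. Of the 10 members 1 was called, fat-7, and it was lower, where 1.39% of all genes were called and 0.219% were called lower. The share of all genes called ran from 0.494% without flp-17oe replicate 3 to 2.18% without flp-17(lof) replicate 1. This stearoyl-CoA desaturase gene had 91.1, 46.3, 97.8, 101 and 62.8 CPM in flp-17oe egl-6(lof), against 90.6, 123, 156, 125 and 168 CPM in flp-17oe. Every flp-17oe library except replicate 1 lay above all flp-17oe egl-6(lof) libraries. The mean in flp-17oe egl-6(lof) was 0.601 times that in flp-17oe (log2 -0.74, SE 0.18, edgeR adjusted p = 0.0359). The batch 1 libraries differed by log2 0.01, and batch 2 alone gave -0.90 (edgeR adjusted p = 0.00629). The call was lost, with an edgeR adjusted p of up to 0.124, on leaving out flp-17oe egl-6(lof) replicate 2 or 5, or flp-17oe replicate 3, 4 or 5. It was also lost without a filter on low counts and in a fit to these genotypes alone. Without replicate number 2, 3, 4 or 5 of every genotype it was lost as well, with an edgeR adjusted p of up to 0.349.

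In the same comparison the palmitate elongase gene elo-2 had 102, 85.1, 88.9, 109.8 and 84.1 CPM in flp-17oe egl-6(lof) and 118, 108, 121, 126 and 112 CPM in flp-17oe. Each flp-17oe egl-6(lof) library was below the flp-17oe mean, at 0.804 times it on average, but elo-2 was not called (log2 -0.32, SE 0.09, edgeR adjusted p = 0.118). It was called by DESeq2, in batch 2 alone (log2 -0.35, edgeR adjusted p = 0.0263), and by edgeR without flp-17(lof) replicate 1, egl-6(lof) replicate 1 or flp-17oe egl-6(lof) replicate 4. For elo-5 the log2 change was -0.17 (SE 0.08, unadjusted p = 0.0467 and adjusted p = 0.480 in edgeR), with flp-17oe egl-6(lof) replicate 2 lowest at 126 CPM. The log2 changes of fat-2, fat-5 and fat-6 between these array strains were -0.02 (SE 0.06), -0.002 (SE 0.21) and -0.05 (SE 0.08), none of them called. Of the marker lists, intestine, muscle, neuron, oocyte, vitellogenin, molting and late embryonic genes had no member called in this comparison, and sperm markers had 1 of 11, spe-41. Intestine markers summed to 1060 to 1210 CPM in flp-17oe egl-6(lof) and 1200 to 1340 CPM in flp-17oe, and muscle markers summed to 2410 to 3490 CPM in flp-17oe egl-6(lof) and 3110 to 3630 CPM in flp-17oe. Late embryonic genes summed to 37.4 to 272 CPM in flp-17oe egl-6(lof) and 30.5 to 141 CPM in flp-17oe. The flp-17oe egl-6(lof) libraries lowest in fat-7, replicates 2 and 5, had the highest of these sums, 149 and 272 CPM, while the flp-17oe libraries with the highest sums, replicates 2 and 5 at 141 and 121 CPM, had 123 and 168 CPM of fat-7. The part of these markers in the fat-7 result was not tested.

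Loss of the receptor or of the peptide gene, each against N2, left no member called. In egl-6(lof) against N2, edgeR called 0 of 10 members, against 0.485% of all genes, DESeq2 called 0, and 0 had an unadjusted p under 0.05. Without egl-6(lof) replicate 1, 4.38% of all genes were called and 4 members had an unadjusted p under 0.05, still with 0 called, and DESeq2 called 362 genes with all libraries. Log2 changes lay between -0.26 for fat-7 and 0.06 for fat-2, with SEs of 0.05 to 0.21. The fat-7 transcript had 137, 87.6, 88.7, 89.7 and 84.1 CPM in egl-6(lof), against 127, 128, 113, 99.0 and 114 CPM in N2. All 4 batch 2 libraries of egl-6(lof) were thus below those of N2, while the batch 1 library of egl-6(lof) was the highest of both groups. Batch 2 alone gave log2 -0.37 (edgeR adjusted p = 0.430), still not called. Of the marker lists, sperm markers had 6 of 11 called higher in egl-6(lof) against N2 and the others had 0.

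In flp-17(lof) against N2, edgeR again called 0 of 10 members, against 0.0752% of all genes, DESeq2 called 0, and 0 had an unadjusted p under 0.05 in edgeR. The changes ran from log2 -0.11 for fat-6 to 0.15 for fat-7, with SEs of 0.05 to 0.21. In the flp-17(lof) strain fat-7 had 128, 126, 122, 134 and 133 CPM, the narrowest spread of any genotype for this gene. All 5 were above the N2 mean of 116 CPM, and the ranges of the groups overlapped. The linked gene elo-2 averaged 117 ± 12.1 CPM in flp-17(lof) and 116 ± 9.01 CPM in N2 (SD, n = 5 each).

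Whether the effect of the array differed with and without the receptor was tested as an interaction, (flp-17oe egl-6(lof) minus flp-17oe) minus (egl-6(lof) minus N2). No member was called by edgeR or DESeq2 (0 of 10, with 0 at an unadjusted p under 0.05 in edgeR), against 0.0888% of all genes. That share was 1.04% without egl-6(lof) replicate 1, and again 0 members were called. For fat-7 the interaction was log2 -0.48 (SE 0.25, edgeR adjusted p = 0.736), so the lower fat-7 of array worms that lack the receptor is not shown to differ from the change seen in worms without the array. For fat-2, fat-3, fat-5 and fat-6 the interaction lay between -0.08 and 0.14 log2, with SEs of 0.09 to 0.30. The comparisons of flp-17oe and of egl-6(lof) with N2 share the N2 libraries, and the 2 comparisons of flp-17oe egl-6(lof) share its libraries.

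**Figure D2:**
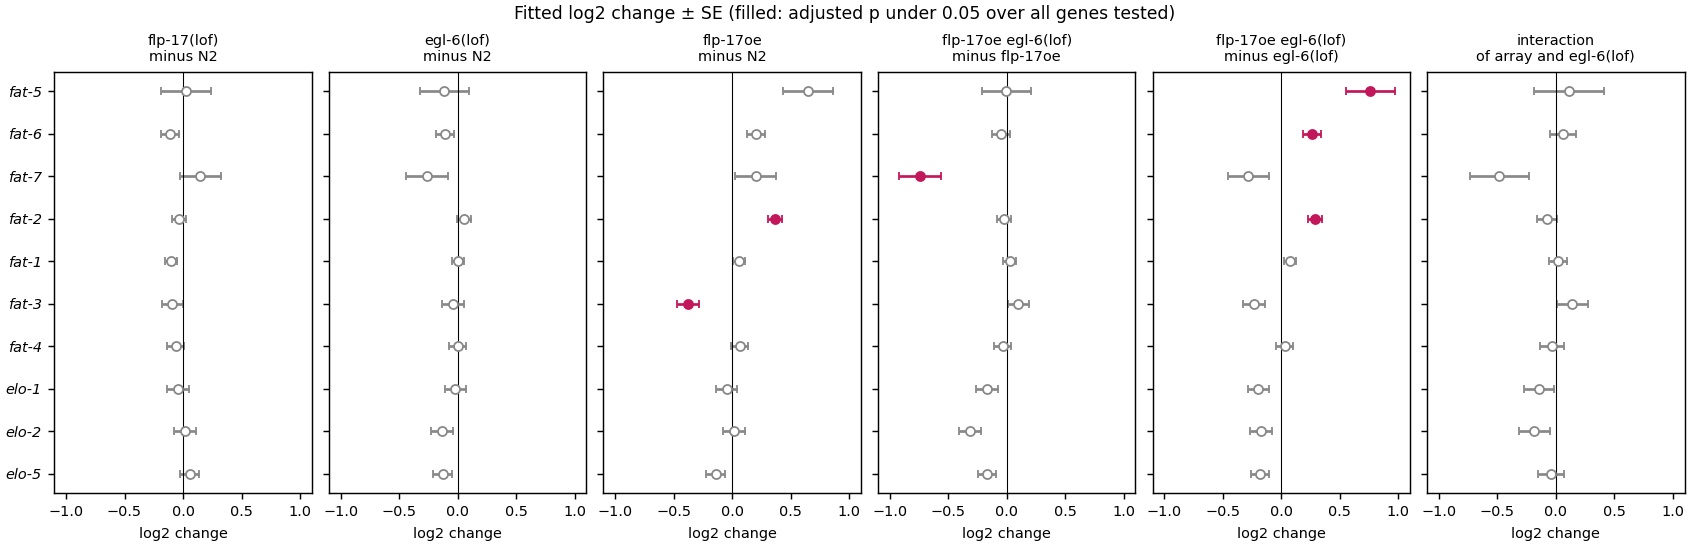
Fitted log2 change (x axis) with its SE for the 10 genes (rows) in the 5 comparisons and the interaction (panels), filled where the adjusted p is under 0.05. Filled points are fat-2 and fat-3 in flp-17oe minus N2, fat-7 in flp-17oe egl-6(lof) minus flp-17oe, and fat-2, fat-5 and fat-6 in flp-17oe egl-6(lof) minus egl-6(lof).

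The make-up of the delta-9 desaturase transcripts was described per length. The sum of fat-5, fat-6 and fat-7 was 394 ± 63.9 RPKM in flp-17oe egl-6(lof), 450.0 ± 72.3 in flp-17oe, 335 ± 35.4 in egl-6(lof), 370.0 ± 27.6 in flp-17(lof) and 373 ± 14.1 in N2 (SD, n = 5 each). In every genotype fat-6 made up the largest share. The share of fat-7 was 17.8% ± 3.81 in flp-17oe egl-6(lof), 26.0% ± 2.46 in flp-17oe, 25.6% ± 3.38 in egl-6(lof), 30.9% ± 1.71 in flp-17(lof) and 27.7% ± 3.06 in N2. Every flp-17oe egl-6(lof) library, at 12.9% to 22.5%, was below every flp-17oe library, at 23.3% to 28.8%. The share of fat-5 was 19.9% ± 4.53 in flp-17oe egl-6(lof) and 17.6% ± 2.00 in flp-17oe, against 14.0% ± 1.52 in egl-6(lof) and 13.7% ± 1.94 in N2.

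Ratios within a library do not depend on its scaling. The log2 ratio of fat-7 to fat-6 counts averaged -1.88 ± 0.43 in flp-17oe egl-6(lof) and -1.17 ± 0.20 in flp-17oe (SD, n = 5 each), a difference of -0.71. An exact two-sided permutation test gave p = 0.00794, the smallest that 5 against 5 libraries allow, and 0.0794 after Benjamini-Hochberg adjustment over the 10 ratio comparisons made. That test does not pair same-numbered libraries, whose deviations correlated for these genotypes with batch not removed. With these libraries taken as 5 pairs, the ratio was lower in flp-17oe egl-6(lof) in 5 of 5. An exact two-sided permutation of signs gave p = 0.0625, the smallest that 5 pairs allow, so this design cannot reach 0.05. The pair of batch 1 differed by -0.05 and batch 2 by -0.88 on average. Against egl-6(lof), at -1.29 ± 0.27, the difference was -0.59 (exact permutation p = 0.0238, adjusted 0.119). The ratio of fat-5 to fat-6 averaged -1.77 ± 0.23 in flp-17oe and -2.18 ± 0.28 in N2, a difference of 0.41 (exact permutation p = 0.0397, adjusted 0.132). None of the 10 ratio comparisons passed the adjustment.

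**Figure D3:**
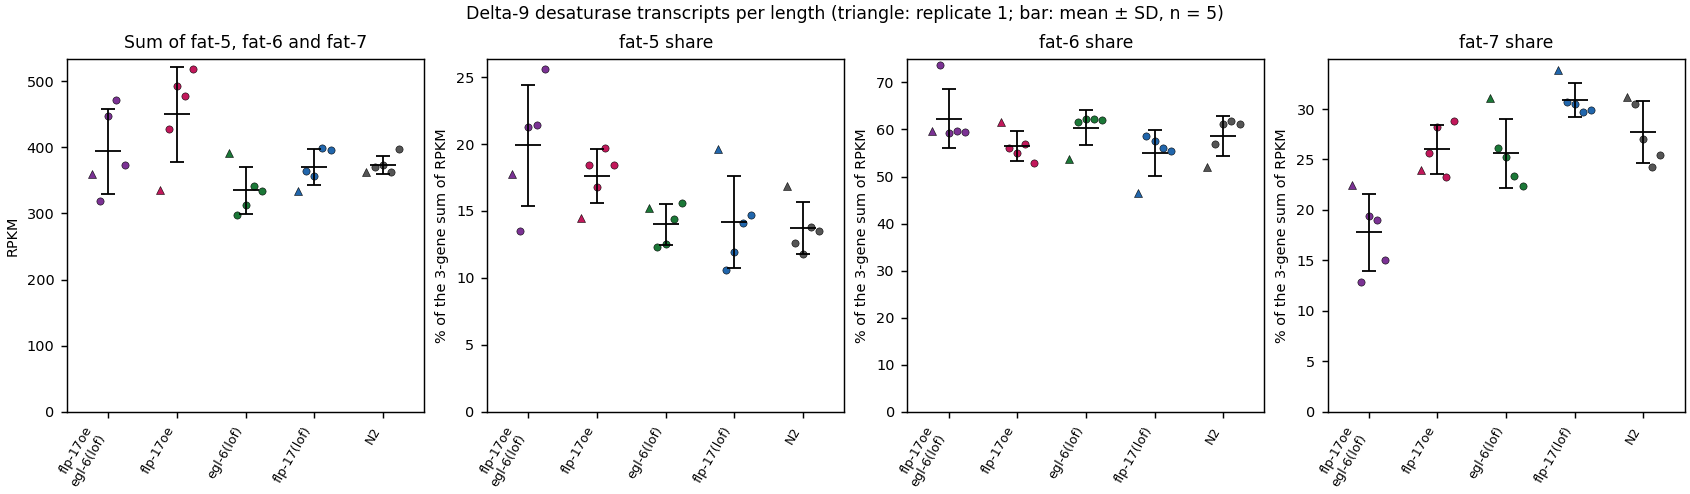
Sum of fat-5, fat-6 and fat-7 per length (RPKM, left panel) and the share of each in that sum (percent, other panels) in every library of the 5 genotypes, with mean and SD as bars. The fat-7 share of flp-17oe egl-6(lof), 12.9% to 22.5%, lies under that of flp-17oe, 23.3% to 28.8%.

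The genes called in flp-17oe against N2, fat-2 and fat-3, each have another desaturase gene close by on chromosome IV. Beside fat-2, its neighbour fat-1 averaged 287 ± 4.54 CPM in flp-17oe and 276 ± 11.0 CPM in N2 (log2 0.06, SE 0.05, edgeR adjusted p = 0.537). The ratio of fat-2 to fat-1 per length was 1.90 ± 0.174 in flp-17oe egl-6(lof) and 1.96 ± 0.202 in flp-17oe, against 1.63 ± 0.0945 in egl-6(lof) and 1.58 ± 0.0866 in N2. Of the flp-17oe libraries 4 had a ratio above the N2 maximum of 1.70, and flp-17oe replicate 1 had 1.68. Beside fat-3, its neighbour fat-4 averaged 192 ± 14.5 CPM in flp-17oe and 183 ± 9.20 CPM in N2 (log2 0.07, SE 0.07, edgeR adjusted p = 0.605). The ratio of fat-3 to fat-4 was 0.341 ± 0.0608 in flp-17oe egl-6(lof) and 0.311 ± 0.0331 in flp-17oe, against 0.410 ± 0.0164 in egl-6(lof) and 0.424 ± 0.0314 in N2. All flp-17oe libraries, at 0.276 to 0.361, were below all N2 libraries, at 0.384 to 0.465. These neighbour ratios were chosen after the values were seen and were not tested.

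**Figure D4:**
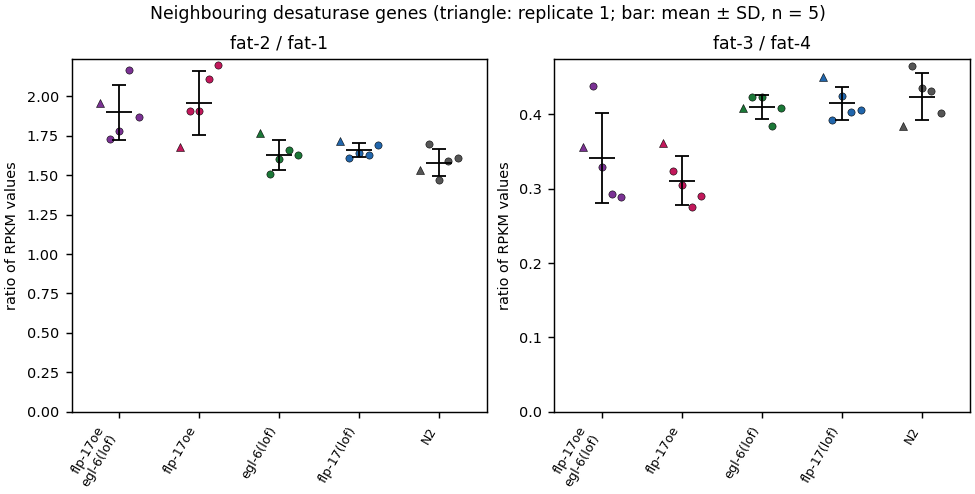
Ratio of the per-length levels of fat-2 to fat-1 (left) and of fat-3 to fat-4 (right) in each library of the 5 genotypes, with mean and SD as bars. Array worms are higher than N2 on the left (means of 1.90 and 1.96 against 1.58) and lower on the right (means of 0.341 and 0.311 against 0.424).

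The likeness of other genes to the called members was measured as the root mean square difference of log2 CPM, each gene centred on its own mean, over the 25 libraries and 9512 genes at a mean log2 CPM of at least 1. These libraries share genotypes, batch and depth, so the values only describe. For fat-2 the nearest gene was fat-6, at 0.109, followed by hex-1 (0.112) and C01B10.6 (0.113), where fat-2 itself deviated from its own mean by 0.199. For fat-6 the nearest were F40B5.2 (0.0898), fat-2 (0.109) and haf-7 (0.118). The genes nearest to fat-3 were C17C3.1 (0.125), clec-5 (0.128) and nuc-1 (0.133), and its nearest member, elo-1, ranked 738 at 0.190. For fat-5 they were F09F7.5 (0.247), M01G12.9 (0.248) and F54E2.1 (0.253), and for fat-7 they were best-7 (0.256), enu-3.6 (0.267) and pho-1 (0.269). The member nearest to fat-7 was elo-5, at rank 5 with 0.285. The copy fat-6 was thus not the member most like fat-7 across these libraries.

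Other genes of the pathway were followed in lists of known function. The 6 elongase genes outside the members, of which 5 were tested, had 0 called in flp-17oe against N2, with a median log2 change of 0.04. In flp-17oe egl-6(lof) against egl-6(lof), where 14.4% of all genes were called, 2 of the 5 were called lower, with a median of -0.21. They were elo-8 (log2 -1.87, SE 0.49) and elo-9 (log2 -0.42, SE 0.14). Against N2, elo-8 was at log2 1.40 (SE 0.47, not called) in egl-6(lof) and at -0.06 (SE 0.51, not called) in flp-17oe. The counts of elo-8 were low in every library, so its change is imprecise. In flp-17oe egl-6(lof) relative to flp-17oe all 5 had a log2 change below 0, with a median of -0.37 against 0.00 over all genes, and 0 were called. The one with the smallest p was elo-6, which shares the branched-chain pathway with elo-5 (log2 -0.34, SE 0.09, edgeR adjusted p = 0.0685).

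Partners of desaturation and elongation, which are ketoacyl reductase, dehydratase, enoyl reductase, cytochrome b5 and acyl-CoA synthetase genes, had 1 of 7 called in flp-17oe egl-6(lof) against egl-6(lof), a share like the 14.4% of all genes called there. That gene was let-767, of a ketoacyl-CoA reductase, and it was lower (log2 -0.19, SE 0.06, edgeR adjusted p = 0.0440). None of the 7 was called in flp-17oe against N2. The 5 fatty acid synthesis genes, among them the acetyl-CoA carboxylase gene pod-2 and the synthase gene fasn-1, had 0 called in any of the comparisons. Of 17 regulators of the desaturases, among them the nuclear receptor genes nhr-49 and nhr-80, the Mediator gene mdt-15 and the SREBP gene sbp-1, 1 was called in flp-17oe against N2, where 6.96% of all genes were called, so that the list did not stand out. It was the intestinal GATA factor gene elt-2 (log2 0.28, SE 0.08, edgeR adjusted p = 0.0378), and 0 were called in the other comparisons.

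Of 8 genes of fatty acid oxidation and the fasting response, 1 rose and 1 fell in flp-17oe against N2, where 6.96% of all genes were called. The enoyl-CoA hydratase gene ech-9 rose by log2 2.67 (SE 0.39), and the acyl-CoA dehydrogenase gene acdh-2 had a log2 change of -1.04 (SE 0.13). In flp-17oe egl-6(lof) against egl-6(lof), where 14.4% of all genes were called, 2 rose and 2 fell. Those that rose were ech-9 (log2 1.97, SE 0.37) and the flavin monooxygenase gene fmo-2 (log2 1.31, SE 0.33), and acdh-2 was among those that fell (log2 -1.14, SE 0.13). Among 12 genes of phospholipid and triacylglycerol assembly, 1 fell and 1 rose in that comparison, a share near the 14.4% of all genes. The phosphoethanolamine methyltransferase gene pmt-2 fell (log2 -0.41, SE 0.07) and the acyl-CoA synthetase gene acs-22 rose (log2 0.27, SE 0.05). None of the 12 was called in flp-17oe against N2, and none of 9 lipid-binding protein genes was called in any comparison. In egl-6(lof) and in flp-17(lof) against N2 none of these pathway lists had a gene called.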

How the data were processed

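Whole-worm poly(A) RNA of 25 samples was sequenced on an Illumina platform, per the labels. The authors deposited 1 table of raw counts per gene and library. Reads were aligned with STAR 2.7.11b to ce11, per the submitters' processing notes, and neither the counting program nor its annotation and strand option is given in the sources used here. Columns were matched to samples through the library names that the labels give, and all 25 were used. Replicates differed by a chi-square of at least 5.67 a gene, so none was a second copy.

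Genes passing filterByExpr by genotype (14634, all 10 members among them) were fitted over all 25 libraries with genotype and batch terms in edgeR 4.0.16 (TMM, robust quasi-likelihood, R 4.3.3), and p-values were adjusted over all genes. The SE is the log2 change divided by the root of the test's F. CPM and RPKM were computed from the deposited counts, RPKM with merged exon lengths of the Ensembl annotation (40782 of 42532 gene names matched). DESeq2 1.42.0 was an alternative. The procedure was tested on simulated data. Same-numbered libraries were taken as paired where all 5 correlations of their deviations were above 0.1. This limit, applied to the data, was met by flp-17oe egl-6(lof) and flp-17oe (correlations of 0.133 to 0.573) and by no other 2 genotypes. Batch was not removed from the deviations, and libraries of unlike number were not compared. A shared batch and a true pairing therefore cannot be told apart. The correlations of flp-17oe with N2 ran from 0.0794 to 0.656, all above 0 but not all above that limit. All members are named, of other lists up to 3 called genes with the smallest p per list and comparison, and 3 most alike genes per called member. Of the other elongases elo-6 was named after its value was seen. The members and lists were chosen with earlier results of these data known.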

Additional observations from a re-analysis of the deposited data

Results flagged for a closer look

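Of 50 sets of 5 replicates (10 members in 5 genotypes), 9 had a library set apart from the rest by more than 0.71 of the range (Dixon's test), where chance flags about 1 in 20. Of these, 4 concern flp-17(lof) replicate 1, the library rich in ribosomal RNA. It had 54.9 CPM of fat-3 against 72.5 to 78.1 CPM in the other flp-17(lof) libraries, 126 of fat-4 against 184 to 191, 181 of fat-6 against 239 to 261, and 184 of elo-1 against 233 to 250.1. In flp-17oe egl-6(lof), fat-3 was high in replicate 2, with 81.8 CPM against 53.0 to 61.3, and fat-4 was low in replicate 1, with 164 CPM against 189 to 199. In egl-6(lof) replicate 1 fat-7 had 137 CPM, against 84.1 to 89.7. In flp-17oe replicate 3 fat-1 had 295 CPM, against 285 to 287. In N2 replicate 3 elo-5 had 201 CPM, against 211 to 214.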

How the results depend on the processing

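All 6 called member changes kept their direction in all 216 refits (36 settings each). Of the 60 member changes, 21 changed sign in at least 1 refit, the largest of them 0.14 log2 in size with all data. Calls in flp-17oe egl-6(lof) minus flp-17oe, 1 with all data, came to 2 with DESeq2, to 0 without a count filter and to 0 with the compared genotypes alone. With the compared genotypes alone those in flp-17oe egl-6(lof) minus egl-6(lof) came to 1, against 3, and those in flp-17oe minus N2 came to 3, against 2. The cause was not tested. Leaving out libraries or replicate numbers gave 1 to 3 member calls in flp-17oe minus N2, 0 to 2 in flp-17oe egl-6(lof) minus flp-17oe, 1 to 4 in flp-17oe egl-6(lof) minus egl-6(lof) and 1 to 7 for any difference. Over all genes the calls ran, in the same order, from 411 of 14644 to 1416 of 14793 and from 18 of 14689 to 322 of 14793. For the last 2 they ran from 1321 of 14644 to 2453 of 14793 and from 1691 of 14644 to 3473 of 14793. Differences of log2 ratios near 0 changed sign when replicate numbers were left out. The fat-7 to fat-6 ratio ran from -0.144 to 0.108 in flp-17oe minus N2, and the fat-5 to fat-6 ratio from -0.0639 to 0.0359 in egl-6(lof) minus N2 and from -0.0587 to 0.237 in flp-17oe egl-6(lof) minus flp-17oe. A replicate block in place of batch left fat-7 called in flp-17oe egl-6(lof) minus flp-17oe, the genotypes taken as paired (log2 -0.76, edgeR adjusted p = 0.0434). In flp-17oe minus N2, whose lowest correlation, 0.0794, missed the pairing limit of 0.1, the block called 3 members, fat-5 added (edgeR adjusted p = 0.0377). Over all genes 1095 of 14634 were called there with the block. The block changed no other member call. Pairing the ratios by replicate number, an alternative added after the data were seen, gave differences of -0.71 for fat-7 to fat-6 and 0.022 for fat-5 to fat-6 in flp-17oe egl-6(lof) minus flp-17oe (exact permutation p = 0.0625 and 0.938, not adjusted). Depth did not limit these genes.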
